A study of Homo sapiens with 3 samples.

Results

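The measurements describe, in the human high-grade serous ovarian cancer (HGSOC) line OVCAR3, 10 genes of protein folding in the endoplasmic reticulum (ER), which are HSPA5, HSP90B1, CALR, HYOU1, SDF2L1, DNAJB9, PDIA4, PDIA6, HERPUD1 and XBP1. They were taken by name from the 36601 genes of the count tables, and each of the 10 was found once and measured in every library. The cells were grown for 48 hours with the solvent (DMSO), with 50 μM RAC1i (NSC23766, an inhibitor of the activation of the small GTPase RAC1) or with 50 μM RAC1i together with 5 μM EZH2i (Combo; the EZH2i is GSK126, an inhibitor of the histone methyltransferase EZH2). Each condition was a single library from a single cell line, so no test between conditions was possible, and cells given EZH2i alone were not analysed here. Transcripts were counted as unique molecular identifiers (UMIs, each marking 1 captured mRNA molecule), and levels are CPM, the UMIs of a gene per 1000000 UMIs of all genes, from the pooled UMIs of all cells kept in a library. Intervals in brackets are exact 95% intervals for counting error only, and they do not hold the spread between cultures.

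The ER folds secreted and membrane proteins. HSPA5 (BiP) is its HSP70 chaperone, HYOU1 exchanges the nucleotide of HSPA5, DNAJB9 and SDF2L1 are partners of it, HSP90B1 (GRP94) is the HSP90 of the ER, CALR (calreticulin) is a lectin chaperone of glycoproteins, and PDIA4 and PDIA6 are disulfide isomerases. When unfolded proteins accumulate, the sensors IRE1, PERK and ATF6 start the unfolded protein response (UPR), in which spliced XBP1 and cleaved ATF6 induce chaperone genes and genes of ER-associated degradation such as HERPUD1, while PERK raises the translation of ATF4. Cancer cells that secrete much protein depend on this system. The 3′ counts used here do not separate spliced from unspliced XBP1.

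After filtering, 7531 DMSO cells, 10215 RAC1i cells and 8239 Combo cells were kept, and their median depths were 26750, 20989 and 24953 UMIs. Pairs of libraries shared 15 to 23 barcodes of kept cells. All 8 markers of serous ovarian epithelium were detected in each library, and their summed levels were 3577, 1916 and 2108 CPM in DMSO, RAC1i and Combo. The summed markers of fibroblasts and of endothelial cells stayed between 1.24 and 5.80 CPM, and those of leukocytes were at 1.22 CPM in DMSO, 10.49 in RAC1i and 10.32 in Combo, and their part in the results was not tested. Among these, PTPRC and CD3E were at 0 in Combo, and COL3A1 was at 0 in DMSO and Combo. The DMSO cells were mixed in their mitochondrial share. A median of 5.60% of their UMIs was mitochondrial, against 1.66% in RAC1i and 1.58% in Combo, and 1988 DMSO cells (26.4%) had at most 3%. These 1988 cells were shallow, with a median of 7293.5 UMIs, and since their ER chaperone levels differed from those of the other DMSO cells, the levels of the 10 genes against DMSO are also given for cells with at most 3% mitochondrial UMIs and for cells with at least 20000 UMIs.

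The promoters of the 10 genes were read from RefSeq (GRCh38.p14, 250 bases before to 50 after each start, with 2 starts each for PDIA4, PDIA6 and XBP1), since several of these genes are known targets of the factors ATF6 and XBP1. The ER stress response element (ERSE), searched as CCAAT, 9 bases, CCACG on both strands, was present in HSPA5, HSP90B1, PDIA6, CALR and XBP1. The related ERSE-II, searched as ATTGG, 1 base, CCACG, was present in SDF2L1, HERPUD1 and HYOU1. Thus 8 of the 10 genes held one or the other. Of all 27305 genes with a promoter in the table, these 8 included, 44 did (46 of 35116 promoters, 0.131%). Such elements were defined on promoters of known target genes, so the count describes the 10 genes and is no test. With the rest of each window in lower case and the letters fixed by the motif in capitals, the sequences upstream of the start, 5′ to 3′ on the strand of the gene, were as follows (where the motif lies on the opposite strand it reads CGTGG before ATTGG, or CGTGG before CCAAT).
HSPA5, chr9:125241386-125241414, minus strand: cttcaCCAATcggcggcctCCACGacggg
HSP90B1, chr12:103930211-103930239, plus strand: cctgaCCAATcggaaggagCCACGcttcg
HSP90B1, chr12:103930316-103930344, plus strand: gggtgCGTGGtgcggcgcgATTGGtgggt
PDIA6, chr2:10812848-10812876, minus strand: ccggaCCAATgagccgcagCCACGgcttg
CALR, chr19:12938379-12938407, plus strand: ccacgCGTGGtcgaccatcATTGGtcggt
XBP1, chr22:28800598-28800626, minus strand: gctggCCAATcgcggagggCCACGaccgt
SDF2L1, chr22:21642109-21642129, plus strand: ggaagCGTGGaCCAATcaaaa
HERPUD1, chr16:56932020-56932040, plus strand: cgccgATTGGgCCACGttggg
HYOU1, chr11:119057269-119057289, minus strand: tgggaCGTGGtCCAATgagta
HYOU1, chr11:119057375-119057398, minus strand: ccccgTGACGTGGtCCAATcccag

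Counted from the start of transcription, the HSPA5 element lay at −66 to −48. That of PDIA6 lay at −86 to −68 of the more downstream of its starts, and that of XBP1 at −52 to −34 of the more upstream of its starts. In GENCODE 44 the windows of HSPA5, CALR, XBP1, SDF2L1, HERPUD1 and HYOU1 lay outside any gene, the PDIA6 window lay in an intron of longer PDIA6 transcripts, and both HSP90B1 windows overlapped an annotated HSP90B1 exon, the first of them also an exon of TTC41P. In the last HYOU1 window the capitals also mark the UPR element TGACGTGG, which overlaps the ERSE-II there and was present in 0.729% of all promoters. HERPUD1 also held TTGCATCA, an element of ATF4 type present in 0.866% of all promoters, at −176 to −169, as the only one of the 10. PDIA4 and DNAJB9 held none of these letters in their windows.

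Levels of the ER chaperones are described first for HSPA5 and its partners, and the plot of levels by library gives all 10. HSPA5 was at 357 CPM in DMSO [354 to 359.5], 206 in RAC1i [204 to 208] and 222 in Combo [220 to 224]. The level in RAC1i was 0.577 times that in DMSO [0.571 to 0.584], and the level in Combo 0.6225 times [0.615 to 0.630]. HYOU1, the exchange factor, was at 26.9 CPM in DMSO [26.2 to 27.6], 18.5 in RAC1i [17.9 to 19.0] and 17.7 in Combo [17.1 to 18.2]. Both treated libraries were below DMSO, at 0.687 and 0.657 times its level. The intervals of their levels overlapped each other, and Combo was at 0.957 times the RAC1i level [0.916 to 0.9998].

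SDF2L1, which keeps substrates of HSPA5 from aggregating, was at 127 CPM in DMSO [125 to 128], 20.6 in RAC1i [20.01 to 21.17] and 24.3 in Combo [23.6 to 24.9]. It showed the largest difference of the 10 genes, at 0.162 times the DMSO level in RAC1i [0.157 to 0.167] and 0.191 times in Combo [0.186 to 0.197]. DNAJB9, the J-domain protein that represses IRE1, went the other way, at 17.5 CPM in DMSO [16.9 to 18.05], 64.7 in RAC1i [63.7 to 65.75] and 52.2 in Combo [51.3 to 53.2]. Its level was 3.71 times that of DMSO in RAC1i [3.57 to 3.85] and 2.99 times in Combo [2.88 to 3.11]. Over all kept cells it was the only one of the 10 that was higher in the treated libraries than in DMSO. In cells with at most 3% mitochondrial UMIs HSPA5, HYOU1 and HSP90B1 were higher there too, as given further on.

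**Figure D1:**
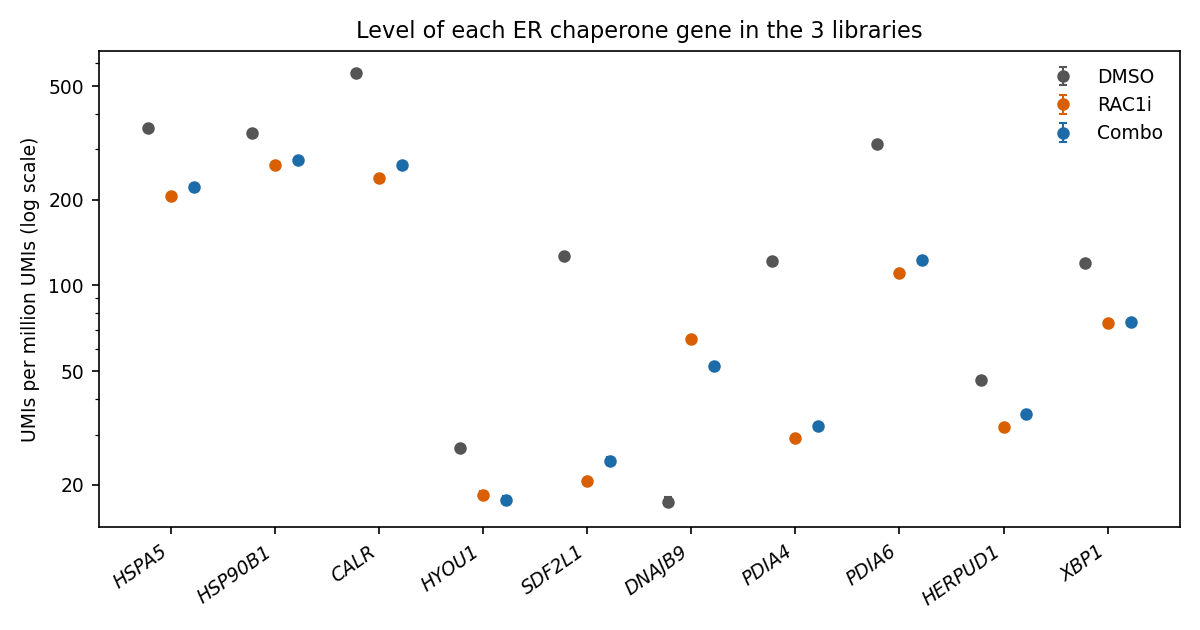
Level of each ER chaperone gene (CPM, log scale) in the DMSO, RAC1i and Combo libraries, with exact 95% counting intervals that are mostly smaller than the points. For 9 genes the DMSO point lies above both treated points, and for DNAJB9 it lies below them.

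HSP90B1, the ER form of HSP90, was at 343 CPM in DMSO [341 to 346], 263 in RAC1i [261 to 265] and 275 in Combo [273 to 278]. At 0.767 times the DMSO level in RAC1i [0.759 to 0.775] and 0.802 times in Combo [0.793 to 0.811], it showed the smallest difference from DMSO in both. The lectin chaperone CALR was at 555 CPM in DMSO [551.5 to 558], 238 in RAC1i [236 to 240] and 263 in Combo [261 to 266]. Its level was 0.4285 times that of DMSO in RAC1i [0.424 to 0.433] and 0.475 times in Combo [0.470 to 0.480].

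Both disulfide isomerases were far below their DMSO levels. PDIA4 was at 122 CPM in DMSO [120 to 123.5], 29.1 in RAC1i [28.4 to 29.8] and 32.05 in Combo [31.3 to 32.8], which is 0.238 times the DMSO level in RAC1i and 0.263 times in Combo. PDIA6 was at 314 CPM in DMSO [311 to 316], 110 in RAC1i [109 to 111.5] and 123 in Combo [121 to 124], or 0.351 and 0.391 times the DMSO level. The isomerases thus lay beyond HSPA5, HSP90B1 and CALR in their ratio to DMSO, with intervals that did not meet.

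HERPUD1, a membrane protein of ER-associated degradation, was at 46.5 CPM in DMSO [45.6 to 47.5], 31.8 in RAC1i [31.1 to 32.5] and 35.5 in Combo [34.7 to 36.3], and its ratios to DMSO were 0.684 and 0.763. XBP1, the transcription factor downstream of IRE1, was at 120 CPM in DMSO [118 to 121], 73.6 in RAC1i [72.5 to 74.7] and 74.2 in Combo [73.05 to 75.37]. The treated libraries were at 0.615 and 0.620 times the DMSO level of XBP1, and they did not differ from each other beyond counting error.

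Summed over the 10 genes, the level was 2028 CPM in DMSO [2022 to 2034], 1055 in RAC1i [1051 to 1059] and 1119 in Combo [1115 to 1124]. The log2 ratio of the sum was −0.94 for RAC1i over DMSO [−0.95 to −0.94] and −0.86 for Combo over DMSO [−0.86 to −0.85]. Both comparisons share the DMSO library. With a difference of at least 1.5-fold as the call, 6 genes were lower in RAC1i (HSPA5, PDIA4, PDIA6, CALR, SDF2L1 and XBP1), where 36.9% of all 8778 tested genes were lower, and 1 was higher (DNAJB9), where 22.7% of all genes were. In Combo 7 were lower (the same 6 and HYOU1), against 35.4% of 8745 genes, and 1 was higher (DNAJB9), against 21.3%. Genes of any kind thus often differed between the treated and DMSO libraries, and the median log2 ratio of all tested genes was −0.20 for RAC1i and −0.18 for Combo, beside a median of −0.75 and −0.69 for the 10 genes. Size factors from DESeq2 moved the median of all genes to −0.07 and −0.04. With them 6 of the 10 genes were lower in RAC1i, against 2842 of all 8694 tested genes. In Combo 4 were lower, against 2682 of 8674.

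The ratio of SDF2L1 lay below the 5th percentile of all genes in both comparisons (−2.62 against −2.19 for RAC1i and −2.39 against −2.05 for Combo, as log2 ratios). DNAJB9 lay above the 95th percentile, at 1.89 against 1.69 for RAC1i and 1.58 against 1.55 for Combo. The log2 ratios of the other 8 genes ran from −2.07 (PDIA4) to −0.38 (HSP90B1) in RAC1i, within that range.

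Combo and RAC1i differed little in these genes. None of the 10 differed by 1.5-fold, against 0.175% of 7443 tested genes higher in Combo and 0.484% lower. The log2 ratio of the sum was 0.09 [0.08 to 0.09], and the ratios of single genes ran from −0.31 for DNAJB9 [−0.34 to −0.27] to 0.24 for SDF2L1 [0.18 to 0.29]. The 8 genes with values above 0 included XBP1, at 0.01 [−0.02 to 0.04].

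The levels were next split by mitochondrial share and depth. DMSO cells with at most 3% mitochondrial UMIs had a summed ER chaperone level of 1281 CPM [1267 to 1295], and those with more had 2142 CPM [2135 to 2149]. In RAC1i the same split gave 1051 and 1088 CPM, and in Combo 1124 and 1076 CPM. The level was lowest in shallow cells. In the 1602 DMSO cells with at most 3% mitochondrial UMIs and under 20000 UMIs it was 611 CPM [597 to 626], or 0.290 times that of all other DMSO cells [0.283 to 0.297], whereas the 202 cells with at most 3% and 20000 to 40000 UMIs were at 1765 CPM [1732 to 1799]. That was still below the 2227 CPM [2218 to 2237] of DMSO cells of the same depth with over 3%, and above 40000 UMIs the values were 1761 CPM [1734 to 1788] and 1930 CPM [1919 to 1940]. The 1028 DMSO cells that had over 3% and under 20000 UMIs were at 2616 CPM [2587 to 2644], so shallow cells were not all low. RNA from the nucleus moved with the split: in DMSO cells with at most 3% mitochondrial UMIs the nuclear RNA MALAT1 was at 8949 CPM and NEAT1 at 3352 CPM, against 27488 and 10718 CPM in the others, while GAPDH was at 4658 against 3113 CPM and ACTB at 2368 against 1910 CPM. In the same split of RAC1i, MALAT1 was at 12005 against 20217 CPM and NEAT1 at 2698 against 5079 CPM. In Combo they were at 15300 against 24536 CPM and 2599 against 4421 CPM, so this shift was not particular to DMSO. What the DMSO barcodes with at most 3% hold, and its part in the results, was not tested. The summed markers of serous ovarian epithelium were at 4678 CPM in the 1602 cells and 3513 CPM in the others.

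**Figure D2:**
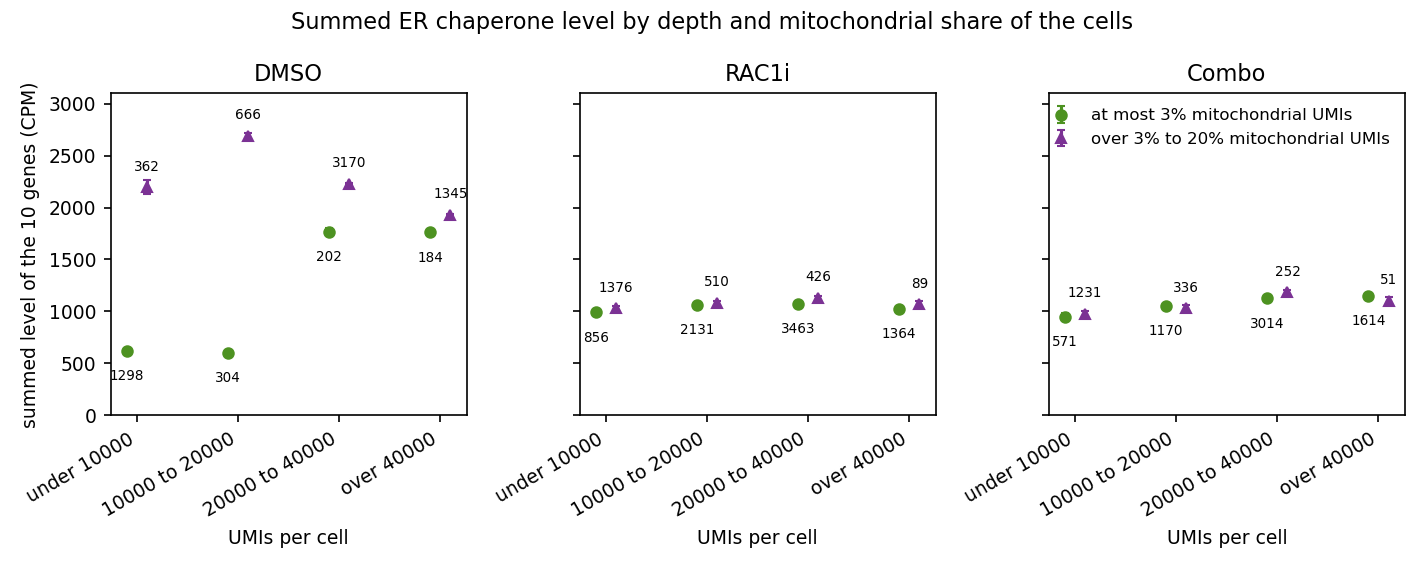
Summed level of the 10 ER chaperone genes (CPM, axis from 0) in cells grouped by UMIs per cell, with circles for cells with at most 3% mitochondrial UMIs and triangles for cells with over 3%, exact 95% counting intervals, and the number of cells beside each point. In DMSO the circles under 20000 UMIs lie at 619 and 598 CPM and all other points at 1761 CPM or above, and in RAC1i and Combo all points lie between 947 and 1183 CPM.

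The genes differed in how low they were. Against the other DMSO cells, the 1602 cells held HYOU1 at 0.135 times the level [0.0969 to 0.182], PDIA4 at 0.184 times [0.162 to 0.208], HSP90B1 at 0.203 times [0.190 to 0.218], HSPA5 at 0.221 times [0.207 to 0.236] and XBP1 at 0.225 times [0.201 to 0.252]. SDF2L1 was at 0.757 times [0.712 to 0.805] and HERPUD1 at 0.643 times [0.575 to 0.717], and both thus stood closer to the other DMSO cells. Other lists were low in the same cells too, with the other ER chaperones at 0.415 times, the UPR sensors at 0.4195 times, ER-associated degradation at 0.537 times and the translocon at 0.778 times the level of the other DMSO cells. The list of the PERK branch was at 0.980 times, that of the oligosaccharyltransferase at 0.934 times and that of heat shock genes at 1.40 times. The heat shock list, labelled cytosolic in the plot of lists, also holds HSPD1 and HSPE1, which are mitochondrial chaperones.

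With every library restricted to cells with at most 3% mitochondrial UMIs, the log2 ratio of the sum was −0.29 for RAC1i over DMSO and −0.19 for Combo over DMSO. SDF2L1 was at −2.66 and −2.27, against −2.62 and −2.39 over all kept cells. Closer to 0 than over all kept cells were PDIA4 at −1.39 and −1.20, PDIA6 at −0.94 and −0.74, and CALR at −0.64 and −0.47, the last no longer past 1.5-fold in Combo. DNAJB9 was at 2.35 and 2.01. HSPA5 changed sign, to 0.07 and 0.19, as did HSP90B1, to 0.52 and 0.59, and HYOU1, to 0.30 and 0.24, while XBP1 came to −0.02 in both and HERPUD1 to −0.28 and −0.12. This selection sets shallow DMSO cells (a median of 7293.5 UMIs, with 1602 of 1988 under 20000) against deeper RAC1i and Combo cells (medians of 24342 and 29602). By depth within this selection the direction turned. Under 10000 UMIs the sum was 619 CPM in DMSO, 989 in RAC1i and 947 in Combo, and at 10000 to 20000 UMIs it was 598, 1064 and 1051 CPM, so DMSO was the lowest in the ranges that hold 1602 of its 1988 cells. At 20000 to 40000 UMIs the sum was 1765 CPM in DMSO, 1070 in RAC1i and 1124 in Combo, and above 40000 UMIs it was 1761, 1020 and 1148 CPM. These DMSO cells numbered 202 and 184. Over all cells with at most 3% mitochondrial UMIs, whatever their depth, 4 genes were lower and 1 higher in RAC1i by 1.5-fold, against 31.8% and 29.1% of all genes, and in Combo 3 were lower and 2 higher (DNAJB9 and HSP90B1), against 29.1% and 28%. With cells of at least 20000 UMIs, which leave out the 1602 cells, the ratios of the sum were −0.97 and −0.87, and 7 genes were lower and 1 higher in either treated library (36.9% and 22.4% of all genes in RAC1i, 35.6% and 21.2% in Combo). By sign, SDF2L1, PDIA4, PDIA6, CALR, HERPUD1 and XBP1 thus were lower and DNAJB9 higher than in DMSO in both selections of cells. The intervals of XBP1 overlapped in the first, and HSPA5, HSP90B1 and HYOU1 differed in direction between them. Signs also turned with depth. In cells with at most 3% and under 20000 UMIs, CALR was at 161 CPM in DMSO, 252.5 in RAC1i and 262 in Combo. XBP1 was at 28.15, 67.4 and 58.55 CPM there, PDIA4 at 23.4, 27.0 and 31.1, and HERPUD1 at 30.5, 29.2 and 30.75. SDF2L1 stayed lower than in DMSO there, at 97.3, 14.5 and 17.5 CPM, and PDIA6 by little, at 103.7, 100.3 and 94.9 CPM.

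**Figure D3:**
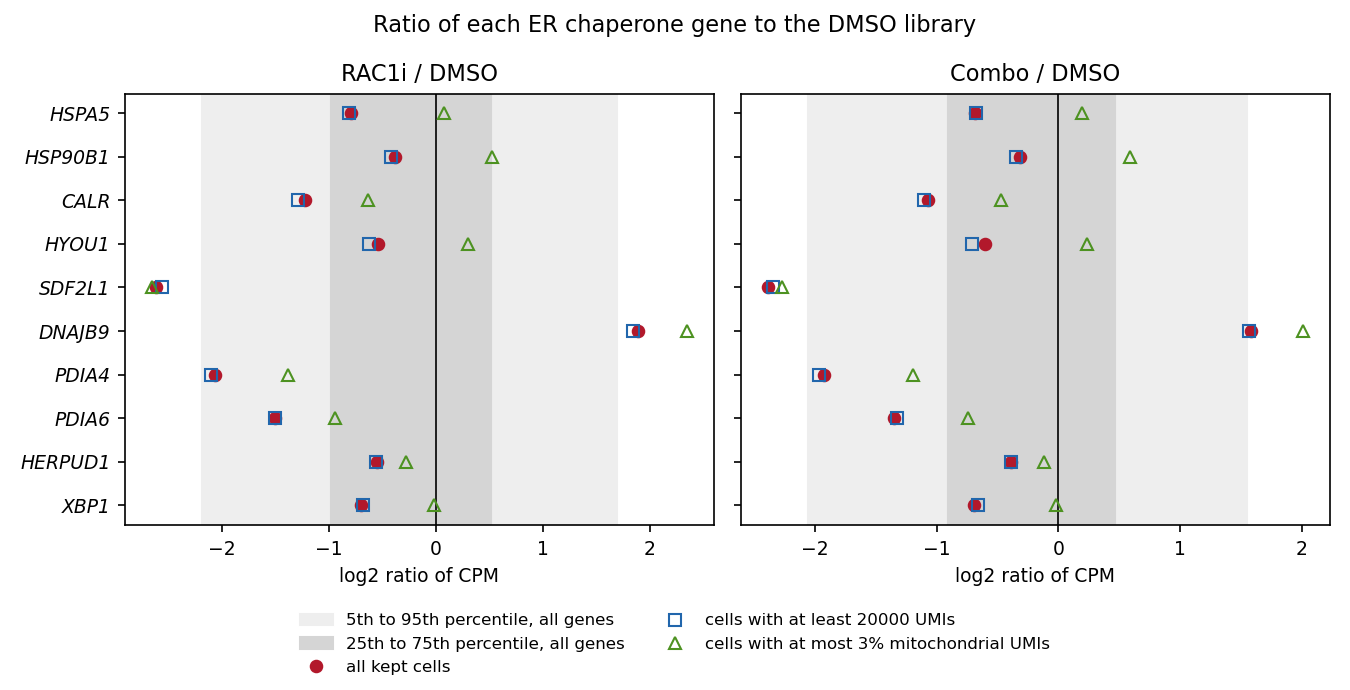
Log2 ratio of CPM of each ER chaperone gene for RAC1i / DMSO and Combo / DMSO, over all kept cells (circles), cells with at least 20000 UMIs (squares) and cells with at most 3% mitochondrial UMIs (triangles). Grey bands give the 25th to 75th and the 5th to 95th percentile of all tested genes over all kept cells, and the triangles of HSPA5, HSP90B1 and HYOU1 lie above 0.

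By depth, the summed log2 ratio of RAC1i over DMSO was 0.07 in cells under 10000 UMIs, −0.99 in cells of 10000 to 20000, −1.03 in cells of 20000 to 40000 and −0.90 above that. SDF2L1 ran from −2.91 to −2.51 over these ranges. DNAJB9 was at 2.68 in the shallowest cells, then at 1.84, 1.804 and 1.89. HYOU1 ran from −0.68 in cells of 20000 to 40000 UMIs to 1.30 in the shallowest.

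In the treated libraries the sum hardly moved with the mitochondrial share, but single genes did. In RAC1i cells with over 3% mitochondrial UMIs, SDF2L1 was at 37.3 CPM [35.1 to 39.5], against 18.1 CPM [17.5 to 18.7] in cells with at most 3%. XBP1 was at 51.0 CPM [48.5 to 53.7] against 76.9 CPM [75.7 to 78.2], and DNAJB9 at 46.1 CPM [43.7 to 48.6] against 67.5 CPM [66.3 to 68.6]. XBP1 and DNAJB9 thus were lower, and SDF2L1 higher, in the cells richer in mitochondrial UMIs, which were also shallower (a median of 8073 UMIs against 24342). In Combo the difference was smaller for SDF2L1, at 28.8 CPM [26.5 to 31.2] against 23.8 CPM [23.1 to 24.5], and XBP1 was at 48.2 against 76.95 CPM and DNAJB9 at 41.5 against 53.4 CPM. HYOU1 was at 24.3 against 17.6 CPM in RAC1i and 25.3 against 16.9 CPM in Combo. Markers of other cell types also moved with the split. In RAC1i cells under 20000 UMIs the summed fibroblast markers were at 14.8 CPM with over 3% mitochondrial UMIs and 6.53 CPM with at most 3%, and the endothelial ones at 7.01 and 2.70 CPM. In Combo these values were 16.9 and 6.485 CPM, and 13.6 and 2.89 CPM. Their part in the levels of the 10 genes was not tested.

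The shares of cells with a UMI were compared next. With each cell thinned to 5000 UMIs, which left out 806 DMSO, 1015 RAC1i and 885 Combo cells that were shallower, a UMI of SDF2L1 was found in 44.85% of DMSO cells [43.65 to 46.05%], 9.02% of RAC1i cells [8.44 to 9.63%] and 10.7% of Combo cells [9.98 to 11.4%]. Without thinning the shares of SDF2L1 were 80.5%, 28.6% and 35.2%. PDIA4 was found in 40.8%, 12.9% and 14.4%, and PDIA6 in 70.8%, 38.0% and 41.7%. HSP90B1 was found in 71.6%, 69.5% and 69.4% of cells, a narrow range, and DNAJB9 in 8.24%, 26.6% and 22.1%. The cultures hold a single cell line and no cells known to lack these genes, so the share given by free RNA was not measured. Before thinning, the sum of the 10 genes had a median of 18.4 UMIs per 10000 in DMSO cells, with a 10th percentile of 3.78 and a 90th of 31.2. In RAC1i cells these values were 10.2, 5.75 and 15.6, and in Combo cells 10.6, 5.71 and 15.7. The 10th percentile of DMSO thus lay below that of the treated libraries and the median above. The thinned sum had a variance of 3.41 times its mean in DMSO cells, against 1.46 for RAC1i and 1.45 for Combo. Its means were 9.82, 5.28 and 5.47 UMIs, so these values do not compare the spread at equal means.

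Other genes of ER function were taken from 7 lists and are shown in the plot of lists. Their counts stand beside 36.9% of all tested genes lower and 22.7% higher in RAC1i, and 35.4% lower and 21.3% higher in Combo, and their medians beside −0.20 and −0.18. Of the other ER chaperones and folding enzymes, 21 of 24 were tested, 0 were higher in RAC1i than in DMSO by 1.5-fold and 10 were lower, with a median log2 ratio of −0.49. The lowest was SIL1, another exchange factor of HSPA5, at 12.5 CPM in DMSO and 2.23 CPM in RAC1i. Of the lower ones, SIL1 and FKBP2 reached 10 CPM, the minimum for testing, only in DMSO. PDIA3, the isomerase that works with CALR, was at 234 CPM in DMSO, 108 in RAC1i and 123 in Combo, and MANF, a secreted ER stress protein, was at 176, 54.4 and 64.0 CPM. The highest was TXNDC5, at 25.8 CPM in DMSO and 37.9 in RAC1i, which was not past 1.5-fold. For Combo over DMSO 0 were higher and 8 lower, a count near the 35.4% of all genes, with a median of −0.37, and the lowest was DNAJC10, at 50.9 CPM in DMSO and 9.38 in Combo. There DNAJC10, SIL1 and FKBP2 were the lower ones that reached 10 CPM only in DMSO.

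Of the UPR sensors and membrane-bound factors, 6 of 9 were tested and 3 were lower in both treated libraries, with medians of −0.84 and −0.79. Of the lower ones, ATF6B and CREB3L2 reached the minimum level for testing only in DMSO. The untested genes were below that level in every library and differed in direction. For RAC1i and Combo over DMSO, the log2 ratios were 0.19 and 0.32 for ERN1 and 2.72 and 2.70 for CREB3L1. Those of MBTPS2 were −0.67 and −0.80. ATF6B, a relative of ATF6, was at 23.0 CPM in DMSO, 5.98 in RAC1i and 6.96 in Combo. MBTPS1, the protease that cleaves ATF6, was at 48.5, 15.4 and 18.5 CPM. CREB3 was the highest of the tested genes of the list, at 64.4, 66.4 and 76.6 CPM. Of the PERK branch, 5 of 14 genes were higher and 5 lower in each treated library, and the lower ones are near the share of all genes (36.9% and 35.4%). Of the lower ones, CHAC1, NUPR1 and SLC7A11 reached the minimum level for testing only in DMSO. ATF3, among the higher ones, reached it only in the treated libraries. ATF4 was at 160 CPM in DMSO, 797 in RAC1i and 775 in Combo, and ATF3, the highest by ratio, was at 5.37, 120 and 119 CPM. SLC7A11, the cystine transporter subunit, was the lowest, at 26.0, 0.992 and 0.7002 CPM.

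Of the genes of ER-associated degradation, 4 of 16 were higher and 4 lower in RAC1i, where 22.7% and 36.9% of all genes were, and 3 were higher and 3 lower in Combo (21.3% and 35.4%). EDEM2, lower in RAC1i, reached the minimum level for testing only in DMSO in that comparison. AUP1, at 92.9 CPM in DMSO, 215 in RAC1i and 218 in Combo, was the highest in RAC1i, and SELENOS, at 47.15, 98.8 and 113 CPM, in Combo. ERLEC1, a lectin of degradation, was the lowest in RAC1i, at 56.2 CPM in DMSO and 24.35 in RAC1i, and SEL1L, the partner of the ligase SYVN1, was the lowest in Combo, at 27.3 and 12.5 CPM. The translocon and signal peptidase list had 5 of 16 higher and 2 lower in each, against the same shares of all genes, from SPCS3, at 78.1, 37.2 and 38.7 CPM, to SEC61G, at 343.5, 668 and 636 CPM. Of the 10 genes of the oligosaccharyltransferase, 1 was higher in each, DAD1 at 234, 378 and 387 CPM, and RPN1 (RAC1i, 137.5 against 201.9 CPM) and RPN2 (Combo, 215.7 against 316.5 CPM) were the lowest, neither past 1.5-fold. Among the 12 genes of the heat shock list, 2 were higher and 4 lower in RAC1i and 1 higher and 4 lower in Combo. The mitochondrial HSPE1 was among the lower ones in both. The list ran from HSPA8, at 661, 225 and 210 CPM, to DNAJB1, at 41.2, 75.2 and 88.0 CPM.

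In Combo over RAC1i no tested gene of the 7 lists was past 1.5-fold, where few of all 7443 tested genes were (0.175% higher and 0.484% lower in Combo). The extremes were, by list, FKBP14 (−0.17) and DNAJC3 (0.36), SYVN1 (−0.25) and EDEM2 (0.37), TRAM1 (−0.36) and SEC11C (0.24), STT3B (−0.27) and KRTCAP2 (0.31), ATF6 (0.12) and MBTPS1 (0.27), VLDLR (−0.22) and PHGDH (0.38), and BAG3 (−0.19) and DNAJB1 (0.23), as log2 ratios.

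**Figure D4:**
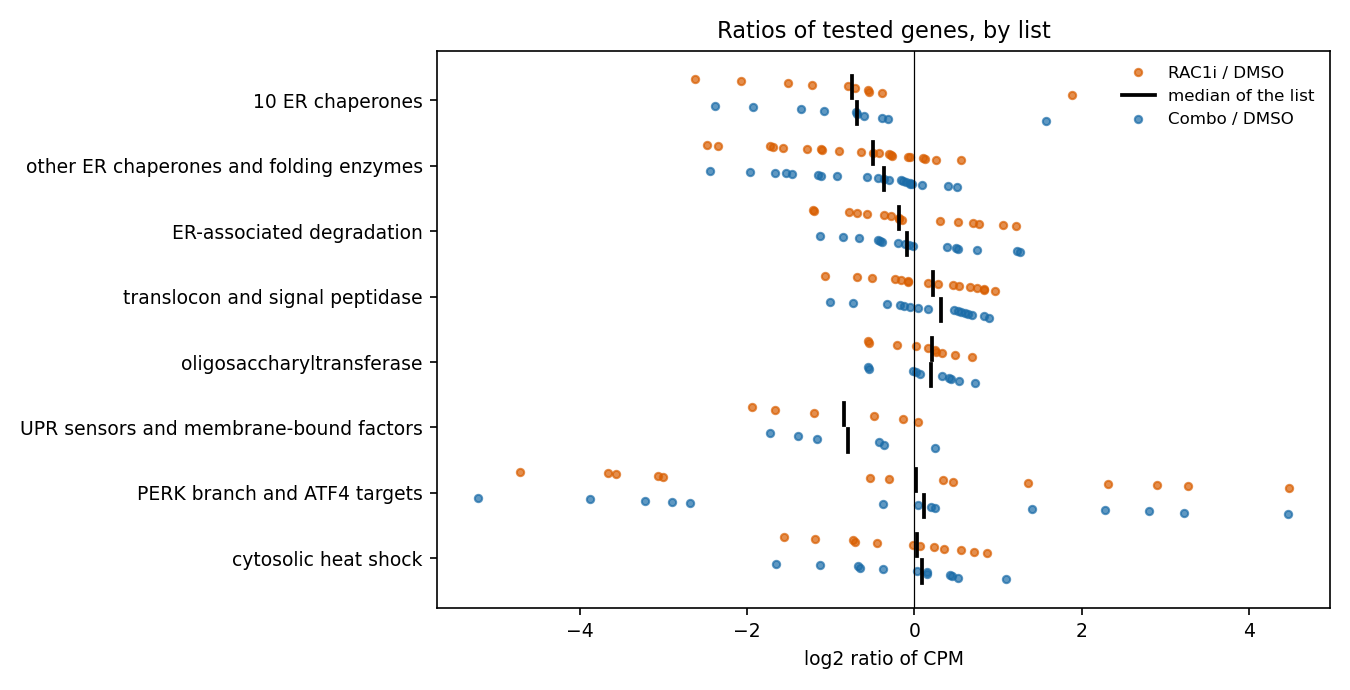
Log2 ratio of CPM of each tested gene in the 10 ER chaperones and in 7 lists, for RAC1i / DMSO and Combo / DMSO, with 1 point per gene and a black bar at the median of the list. The median of the 10 ER chaperones lies at −0.75 and −0.69. Those of the translocon, oligosaccharyltransferase, PERK branch and heat shock (labelled cytosolic) lists lie above 0 in both comparisons.

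Co-expression across cells was measured in each library as the correlation of residual UMIs, which are UMIs relative to those expected from the depth of the cell. The cells of a library share culture, capture and depth, so the values are given as a description. In DMSO all 45 pairs of the 10 genes had a correlation above 0, with a median of 0.18 over 7531 cells, beside 0.01 for all pairs of 2138 genes of at least 50 CPM in each library. Of the 10 genes, 5 (PDIA4, SDF2L1, DNAJB9, HERPUD1 and HYOU1) were under 50 CPM in at least 1 library, so sparser genes are set here beside denser ones. The lowest pair was DNAJB9 with HYOU1 (0.06), and 28 of the 45 pairs lay above the 95th percentile of all pairs (0.15). The highest was CALR with PDIA6, at 0.56 in DMSO, 0.18 in RAC1i and 0.18 in Combo. HSPA5 with HSP90B1 was at 0.50, 0.16 and 0.15, and CALR with HSP90B1 at 0.50, 0.15 and 0.16.

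In RAC1i the median of the pairs was 0.04 over 10215 cells, with 36 of 45 above 0 and 3 above the 95th percentile of all pairs (0.17). In Combo it was 0.03 over 8239 cells, with 30 above 0 and 3 above the 95th percentile (0.18). These are weak values in sparse counts, and single pairs of the treated libraries are read no further. The highest were SDF2L1 with PDIA6 in RAC1i (0.22) and PDIA4 with PDIA6 in Combo (0.19), and the lowest was DNAJB9 with PDIA6 in both (−0.12 and −0.15).

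**Figure D5:**
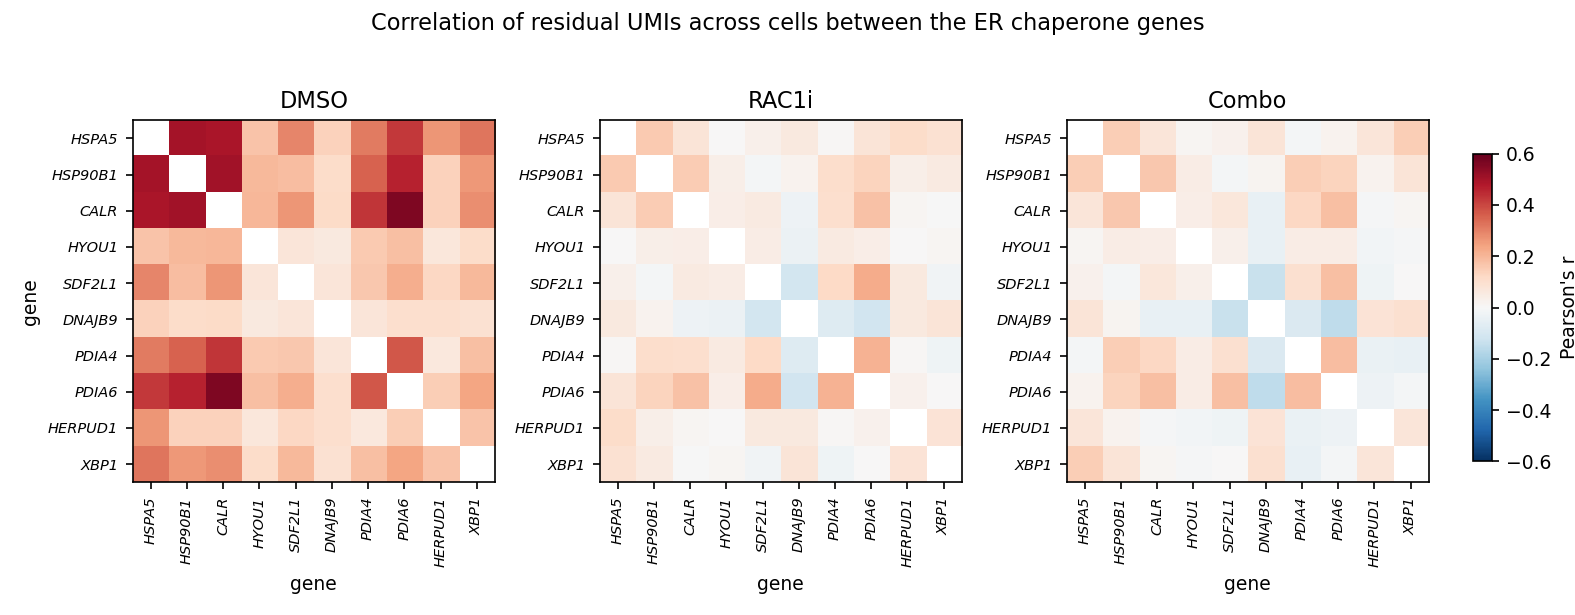
Pearson's r of residual UMIs across the kept cells between each pair of the 10 ER chaperone genes in DMSO, RAC1i and Combo, from blue (−0.6) to red (0.6), with the diagonal left white. The block of HSPA5, HSP90B1, CALR, PDIA4 and PDIA6 is the strongest in DMSO, up to 0.56, and the highest pair of RAC1i is at 0.22 and that of Combo at 0.19.

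The higher co-expression in DMSO was also measured in narrower sets of cells and at equal levels of the genes. In cells of 20000 to 40000 UMIs the median of the pairs was 0.13 in DMSO (3372 cells), 0.05 in RAC1i (3889 cells) and 0.04 in Combo (3266 cells). In DMSO cells with over 3% mitochondrial UMIs it was 0.14. With each gene thinned to its level in the library where it was lowest, the median was 0.12 in DMSO, against 0.04 in RAC1i and 0.02 in Combo, and HSPA5 with HSP90B1 was at 0.46, 0.16 and 0.14. That thinning made CPM equal but not depth, and the median depths of the kept cells were 26750, 20989 and 24953 UMIs. No setting made both equal. With cells thinned to 5000 UMIs, which lowers all values, the medians were 0.08, 0.02 and 0.006.

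Each gene was also set against the sum of the other 9. In DMSO the correlation was highest for CALR (0.66), HSPA5 (0.62), HSP90B1 (0.60) and PDIA6 (0.60), and lowest for DNAJB9 (0.16). In RAC1i it ran from −0.01 for DNAJB9 to 0.23 for HSP90B1, and in Combo from −0.02 to 0.25 for the same genes. In residual UMIs the sum of the 10 genes had a correlation with the mitochondrial share of 0.44 in DMSO, against 0.02 in RAC1i and −0.05 in Combo. With the summed genes of G2 and mitosis it was −0.06, 0.16 and 0.14. With the log10 of UMIs per cell it was 0.22, 0.003 and 0.098, so the residual sum still moved with depth, most in DMSO.

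Cells were also ranked by the thinned UMIs of the other 9 genes, with ties broken at random. The 1681 DMSO cells with the most held HSPA5 at 543 CPM and the 1681 with the fewest at 156 CPM, a ratio of 3.48 [3.27 to 3.70]. With 2300 and 1838 cells at either end, the ratio was 1.22 in RAC1i [1.15 to 1.29] and 1.22 in Combo [1.14 to 1.29]. Within cells of 20000 to 40000 UMIs it was 1.89 in DMSO [1.76 to 2.03], 1.10 in RAC1i [1.01 to 1.20] and 1.11 in Combo [1.01 to 1.21]. The limits for HSPA5 there lay at 6 and 11 UMIs of the other 9 genes in DMSO, but at 3 and 6 in RAC1i and Combo. Ranks from fewer UMIs are less exact, and the part of this in the ratios was not tested. SDF2L1 in the same depth range had a ratio of 1.57 in DMSO [1.39 to 1.77], 0.954 in RAC1i [0.722 to 1.26] and 1.07 in Combo [0.809 to 1.41]. DNAJB9 had 1.58 in DMSO [1.13 to 2.225], 0.921 in RAC1i [0.788 to 1.08] and 1.005 in Combo [0.829 to 1.22]. HYOU1 had 1.43 in DMSO [1.08 to 1.89], 1.64 in RAC1i [1.19 to 2.275] and 0.712 in Combo [0.489 to 1.03], and PDIA4 had 1.66 in DMSO [1.46 to 1.89], 1.43 in RAC1i [1.13 to 1.825] and 1.35 in Combo [1.05 to 1.73]. The genes thus differed in this measure. In this depth range the intervals of both treated libraries included 1 for SDF2L1, DNAJB9, HERPUD1 and XBP1. They lay above 1 in both for HSPA5, HSP90B1, CALR and PDIA4, and only in RAC1i for PDIA6 and HYOU1. At the UMIs that set each limit in this depth range, 182 to 727 cells of a library were tied. Over all thinned cells more were tied, for HSPA5 502 and 449 in DMSO, 1668 and 943 in RAC1i and 1224 and 806 in Combo.

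The 10 other genes most like the sum of the ER chaperones, by the mean of the correlation over the 3 libraries, were CANX (0.37), PDIA3 (0.36), EPCAM (0.31), RPN2 (0.31), DNAJB11 (0.30), ITGB1 (0.29), CCDC47 (0.28), SPINT2 (0.28), TMBIM6 (0.28) and CD9 (0.27). CANX is the membrane-bound relative of CALR, and DNAJB11 is a J-domain partner of HSPA5. In DMSO the values of these 10 genes ran from 0.40 for ITGB1 to 0.61 for PDIA3, beside a 95th percentile of 0.26 over the 2138 genes. In RAC1i and Combo they ran from 0.13 to 0.29, beside a 95th percentile of 0.16 in each. In cells of 20000 to 40000 UMIs CANX and PDIA3 again led, with means of 0.31 each, and RPN2 and DNAJB11 also stayed among the 10 most alike. EPCAM, ITGB1, CCDC47, SPINT2, TMBIM6 and CD9 did not, and MANF, PPIB, MLEC, NCL, CALU and HSPD1 took their places, with means of 0.21 to 0.26. The other ER chaperones of the list (8 genes of at least 50 CPM) had a median correlation with the 10 genes of 0.20 in DMSO and 0.06 in both RAC1i and Combo. For the 9 genes of the heat shock list it was 0.008, 0.02 and 0.03. Their highest correlation with any of the 10 genes was 0.19, 0.32 and 0.31, against 0.54, 0.21 and 0.23 for the other ER chaperones. In Combo the gene most like the sum was HSPD1 of the heat shock list (0.29).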

How the data were processed

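OVCAR3 cells of 3 conditions were measured by single-cell RNA sequencing of 3′ ends, each from a single library. What the authors deposited are raw UMI counts for every gene in every barcode, made with Cell Ranger 4.0.0 on GRCh38 per the submitters' processing notes, without normalization. Total counts of the kept cells were 199063947 for DMSO, 234969742 for RAC1i and 212792113 for Combo. What follows was computed from those counts with Python 3.11.15, numpy 2.4.6, scipy 1.17.1 and R 4.3.3.

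The limits on cells followed the methods of the study: more than 1000 genes, no more than 20% mitochondrial UMIs, and a complexity above 0.8. No doublet caller was run and no doublet was removed. Libraries were grouped by the treatment in their labels, and doses and time were taken from the methods. A gene was tested in a pair of libraries when it had at least 10 CPM in 1 of them, and called at a ratio of 1.5-fold. With 1 library per condition no p-value is given, so no count model was fitted. Intervals at 95% are exact (Poisson, conditional for ratios, Clopper-Pearson for shares) and cover counting error only. Ratios and correlations were checked on simulated data with known answers. Correlations used Pearson residuals of a negative binomial with a theta of 100. Reads of near-identical pseudogene copies of HSPA5 and HSP90B1 could have been left uncounted, which was not tested.

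The named genes were the 10 ER chaperones, in each list the tested gene with the largest rise and that with the largest fall in each pair of libraries, and the 10 other genes of at least 50 CPM most like the sum. MANF, ATF4, MALAT1, NEAT1, ACTB and GAPDH, and the most alike genes in cells of 20000 to 40000 UMIs, were named after their values were seen. The genes and lists were chosen with earlier results of these data known. As alternatives, cells were limited to 10% mitochondrial UMIs, all barcodes were used, or the 8% of cells with the most UMIs were dropped. Scaling was changed to TMM from edgeR 4.0.16, to size factors from DESeq2 1.42.0, or to totals that leave out mitochondrial genes. Others were averaging CPM over cells, thinning each cell to 5000 or 2500 UMIs, a 2-fold call, no minimum CPM, and 1 mismatch in the ERSE. Restricting to cells with at most 3% mitochondrial UMIs or at least 10000 or 20000 UMIs, and thinning genes to their lowest level, were chosen after seeing the data.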

Additional observations from a re-analysis of the deposited data

How the results depend on the processing

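No paired analysis was possible because each condition was 1 library. The log2 ratio of the sum of the 10 genes for RAC1i over DMSO (−0.94) was −0.91 with a mitochondrial limit of 10%, −0.93 with every barcode, −0.96 without the 8% of cells with the most UMIs, −0.86 with TMM, −0.83 with size factors from DESeq2, −1.01 with a total without mitochondrial genes, −0.81 as a mean over cells, −0.89 with cells thinned to 5000 UMIs, and −0.97 with cells of at least 10000 or of at least 20000 UMIs. In the same order, Combo over DMSO (−0.86) was −0.82, −0.84, −0.89, −0.77, −0.74, −0.92, −0.77, −0.84, −0.88 and −0.87. With at most 3% mitochondrial UMIs the values were −0.29 and −0.19. Combo over RAC1i (0.09) was 0.0689 without the cells with the most UMIs, 0.10 with TMM, 0.0394 as a mean over cells, 0.0507 thinned, 0.10 at most 3% mitochondrial UMIs and 0.11 with at least 20000 UMIs. The count of genes lower in Combo than in DMSO (7) was 4 with DESeq2 size factors, against 2682 of all 8674 tested genes. It was 4 at a 2-fold call, for which the share of all genes was not counted. The 25th percentile of all tested genes was a log2 ratio of −0.91 for Combo over DMSO, so the 2-fold count is read no further. In cells with at most 3% mitochondrial UMIs the count of genes lower by 1.5-fold was 3 (29.1% of all genes), and the count of genes higher was 2 instead of 1 (28%). In those cells, HSPA5 reversed to 0.0736 (RAC1i) and 0.19 (Combo) and HYOU1 to 0.24 (Combo), and of the differences not past 1.5-fold over all kept cells, those that changed sign were HYOU1 at 0.30 (RAC1i) and HSP90B1 at 0.52 (RAC1i) and 0.59 (Combo).

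The median correlation of the pairs in DMSO (0.18) was 0.27 on log2 UMIs per 10000, 0.0763 in cells thinned to 5000 UMIs, 0.13 in cells of 20000 to 40000 UMIs, 0.21 without cells with a UMI of the G2 and mitosis list, 0.14 in cells with over 3% mitochondrial UMIs and 0.12 with each gene thinned to its lowest level. In RAC1i (0.04) it was 0.0194 in thinned cells and 0.0614 without cells of the G2 and mitosis list, and in Combo (0.03) it was 0.0502 on log2 UMIs and 0.00581 in thinned cells. With 1 mismatch, 8 of the 10 genes held an ERSE, where 5 held an exact one. Of all promoters, 1.55% held an ERSE with 1 mismatch allowed and 0.077% an exact one.

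Without replicates, the spread between cultures is unknown. Treatment cannot be told apart from differences between the 3 libraries in capture, depth and mitochondrial share, whose part in the levels was not tested beyond the selections of cells above. No test between conditions was possible.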
